A study of Homo sapiens with 14 samples.

Results

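Condensin I and II were followed through their 8 subunit genes, SMC2, SMC4, NCAPD2, NCAPD3, NCAPG, NCAPG2, NCAPH and NCAPH2, which were taken by name and not by any measured value. All 8 were listed in each kind of deposited table, which held 57792 genes for old and young cells, 54628 for WT and HMGB2 KD and 38716 for ICM. RNA had been sequenced from IMR90, fibroblasts of human fetal lung that divide for a limited time in culture, to ask how gene expression in cells treated with a small molecule compares with that in replicatively senescent cells. Cells came from isolates named I79 and I10, each sampled young (low passage, proliferating) and old (high passage, senescent). I79 ICM cells were low-passage I79 cells given inflachromene (ICM), a direct ligand of the high-mobility-group proteins HMGB1 and HMGB2. HMGB2 KD cells had HMGB2 depleted with siRNA and were set against cells labelled WT. The labels do not give the dose or duration of ICM for these libraries, the isolate of WT and HMGB2 KD, or whether WT received a control siRNA.

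Condensins are ring-shaped ATPases that extrude loops of DNA and compact chromosomes for mitosis. Both complexes share the ATPase pair SMC2 and SMC4. Condensin I adds the kleisin NCAPH, which closes the ring, and the HEAT-repeat subunits NCAPD2 and NCAPG; condensin II adds the kleisin NCAPH2 and the HEAT-repeat subunits NCAPD3 and NCAPG2. Condensin II is nuclear through interphase, while condensin I is largely cytoplasmic until the nuclear envelope breaks down. Several subunit genes are known to be transcribed with the cell cycle, under control of the DREAM and MuvB complexes, E2F factors and FOXM1.

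The old and young groups each had 1 table for the 2 samples in the labels, so each is printed as the authors' value with no SD, and the 2 isolates served as the replicates. Gene counts ranged from 14598433 to 20055750 in these 4 tables, from 33561766 to 41168932 in the 4 WT and HMGB2 KD libraries, and from 10971132 to 13290131 in the 2 ICM libraries. Fibroblast markers were present throughout, with 12 of 12 above 1 CPM (counts scaled to library size) in every table and a summed level of 14200 to 47000 CPM. Of the marker lists of other cells, 2 to 3 of 6 epithelial, 1 to 3 of 5 endothelial and 1 to 2 of 6 blood genes were above 1 CPM in a table. EPCAM reached 0.702 CPM and PTPRC 0.226 CPM at most, and PECAM1 reached 0.502 CPM in the WT, HMGB2 KD and ICM tables and was not analysed here in the old and young tables, while CDH5 was at 0 CPM in every table. The markers that stood highest were TEK (48.5 to 214 CPM), CD68 (21.4 to 158 CPM), KRT18 (17.3 to 79.3 CPM) and KRT8 (11.2 to 31.9 CPM). Nothing in the labels says that replicates came from separate cultures, so the spread between these libraries or isolates may in part be technical. The p-values and SE of the fits do not measure a gene's own spread alone. With few replicates, the variance of each gene was moderated by that of all genes tested.

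The promoter windows of the 5 subunit genes that were called lower in old cells are shown because these genes moved together. SMC4 and NCAPD3 have a second window each, which held none of the motifs marked here and is not shown. Each is the RefSeq window of GRCh38.p14 from 250 bases before to 50 bases after an annotated start site, 5′ to 3′ on the gene's strand. Capitals mark exact matches on either strand to TTTGAA (the letters of the cell cycle genes homology region, CHR, bound by MuvB), to CCAAT (the box bound by NF-Y) and to TTTCCCGC (an E2F-like motif).
SMC4, chr3:160399400-160399699, plus strand: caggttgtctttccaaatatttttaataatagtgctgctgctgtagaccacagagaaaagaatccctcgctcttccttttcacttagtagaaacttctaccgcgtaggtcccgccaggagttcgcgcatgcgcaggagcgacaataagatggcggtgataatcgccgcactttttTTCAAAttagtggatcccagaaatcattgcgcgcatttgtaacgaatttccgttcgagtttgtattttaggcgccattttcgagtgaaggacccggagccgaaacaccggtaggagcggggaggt
NCAPD2, chr12:6493852-6494151, plus strand: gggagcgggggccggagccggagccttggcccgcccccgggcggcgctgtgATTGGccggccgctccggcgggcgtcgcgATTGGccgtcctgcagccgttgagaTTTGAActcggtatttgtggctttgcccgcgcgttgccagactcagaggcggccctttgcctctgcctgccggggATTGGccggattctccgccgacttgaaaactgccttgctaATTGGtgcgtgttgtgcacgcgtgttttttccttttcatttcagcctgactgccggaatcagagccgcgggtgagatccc
NCAPD3, chr11:134223918-134224217, minus strand: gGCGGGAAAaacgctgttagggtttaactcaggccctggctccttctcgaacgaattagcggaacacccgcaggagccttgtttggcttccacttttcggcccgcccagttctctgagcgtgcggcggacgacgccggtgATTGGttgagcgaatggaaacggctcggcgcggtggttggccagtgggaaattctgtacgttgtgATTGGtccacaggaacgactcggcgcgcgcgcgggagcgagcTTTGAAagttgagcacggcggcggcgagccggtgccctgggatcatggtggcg
NCAPG, chr4:17810729-17811028, plus strand: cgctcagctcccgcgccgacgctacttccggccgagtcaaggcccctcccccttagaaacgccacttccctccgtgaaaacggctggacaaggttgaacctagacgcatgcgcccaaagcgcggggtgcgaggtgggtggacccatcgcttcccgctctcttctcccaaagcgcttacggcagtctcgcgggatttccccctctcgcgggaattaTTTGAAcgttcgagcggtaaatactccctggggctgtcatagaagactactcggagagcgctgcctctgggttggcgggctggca
NCAPH, chr2:96335516-96335815, plus strand: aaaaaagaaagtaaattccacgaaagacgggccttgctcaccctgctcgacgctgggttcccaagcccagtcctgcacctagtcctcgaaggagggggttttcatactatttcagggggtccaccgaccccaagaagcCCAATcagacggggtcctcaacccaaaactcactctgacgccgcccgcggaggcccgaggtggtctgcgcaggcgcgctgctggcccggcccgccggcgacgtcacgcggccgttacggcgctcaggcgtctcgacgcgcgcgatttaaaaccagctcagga

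RefSeq gave 10 windows for 7 of the 8 genes, and NCAPH2 had no entry. TTTGAA was found in 1 window of each of 6 genes (SMC2, SMC4, NCAPD2, NCAPD3, NCAPG and NCAPG2), against 15.2% of the 35116 windows in the table. Counting the start site as base 0, it lay at -35 to -30 in NCAPG, at -3 to 2 in NCAPD3 and SMC2, at -75 to -70 in SMC4, at -145 to -140 in NCAPD2 and at 35 to 40 in NCAPG2. The other CHR form searched, TTTCGAA, was in 0.632% of all windows and in none of the 10. NCAPH, the gene with the largest change below, held no TTTGAA and 1 CCAAT, at -112 to -108. CCAAT was in 34.6% of all windows and in those of NCAPH, NCAPD3 (2 matches) and NCAPD2 (4 matches). Of 4 E2F-like motifs searched, TTTCGCGC, TTTGGCGC, TTTCCCGC and TTTGCCGC, at least 1 was in 3.31% of all windows, and the only match among the 10 was that in NCAPD3. These matches describe letters in a window and no binding was measured.

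Old cells held less condensin mRNA than young cells in both isolates. A call required an adjusted p under 0.01 and a log2 fold change beyond 0.6, and 5 genes were called lower. The kleisin NCAPH and the HEAT subunit NCAPG of condensin I fell most, followed by SMC4, NCAPD2 and NCAPD3. SMC2 and NCAPG2 were also lower but missed the adjusted p, and NCAPH2 missed both thresholds. So 5 of 8 subunit genes were called lower and 0 higher, where 3.78% of the 15116 genes tested were called lower and 9.53% in either direction. The median log2 fold change was -1.33 over the 8 genes and -0.01 over all genes tested. All 8 had both old columns below both young columns, as did 37.5% of all genes tested. Markers of other cells went both ways. TEK stood at 95.3 and 66.0 CPM in young I79 and I10 and at 214 and 165 CPM in old. CD68 stood at 21.4 and 23.2 CPM in young and at 158 and 84.5 CPM in old. The epithelial marker KRT18 was lower in old cells, at 54.8 and 58.5 CPM in young and 17.3 and 28.4 CPM in old. KRT19 was lower as well, at 2.94 and 7.30 CPM in young and 1.52 and 1.27 CPM in old. The part of these markers in the condensin values was not tested. In RNA from whole cultures, fewer cells in a state and less RNA per cell cannot be told apart.

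**Figure D1:**
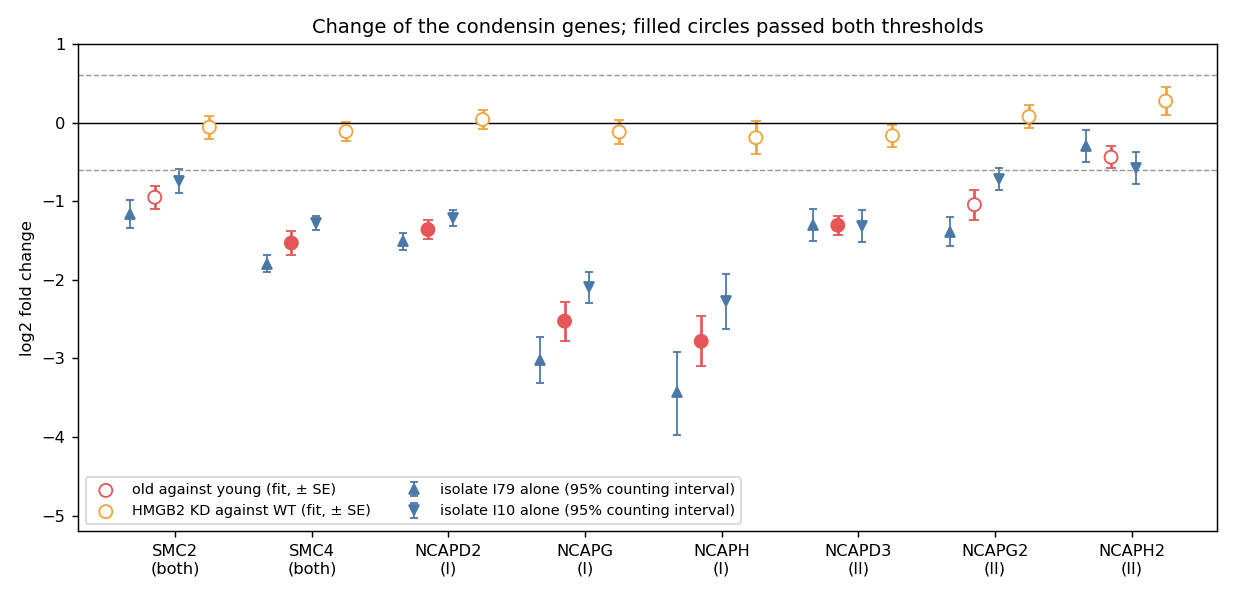
Log2 fold change of each condensin gene, with condensin membership in brackets. Red circles give old against young over both isolates and orange circles HMGB2 KD against WT (bars, SE of the fit; filled circles passed both thresholds), and blue triangles give each isolate alone (bars, 95% counting interval); NCAPG and NCAPH lie lowest in both isolates, and every HMGB2 KD value lies between -0.19 and 0.27.

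Of the shared ATPases, SMC4 stood at 177 and 198 CPM in young I79 and I10 (TMM-scaled, as for all values of this comparison) and at 51.1 and 81.9 CPM when old. The log2 fold change was -1.53 ± 0.16 (± gives the SE of the fit here and beside each later log2 fold change), with an adjusted p of 0.00597 (edgeR, quasi-likelihood with Benjamini-Hochberg adjustment, as for all adjusted p-values unless another tool is named). The old columns thus held 28.8% of the young level in I79 and 41.4% in I10. SMC4 (chr3:160117062-160152742 of GRCh37, plus strand) overlaps the coding genes IFT80 and TRIM59 and the host region of MIR15B and MIR16-2. SMC2 (chr9:106856541-106903700, plus strand) overlaps no other annotated gene. It stood at 48.8 and 51.5 CPM in young I79 and I10 and at 21.9 and 30.7 CPM in the old columns (log2 fold change -0.95 ± 0.14, edgeR adjusted p 0.0126). Its change was smaller than that of its partner SMC4 in each isolate, at -1.16 against -1.79 in I79 and -0.75 against -1.27 in I10, with 95% counting intervals that did not overlap. These intervals cover counting error only, with 1 column per age in each isolate, and the difference was not tested.

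Among the condensin I subunits, NCAPH (chr2:97001504-97042829, plus strand, no overlapping gene) had the largest change of the 8. Young I79 and I10 held 318 and 428 estimated reads of NCAPH (20.4 and 22.3 CPM), and old I79 and I10 held 35 and 84 (1.90 and 4.64 CPM). NCAPH fell by 2.78 ± 0.32 on the log2 scale (edgeR adjusted p 0.00696), and 1.33% of all genes tested had a lower value. The I79 old column held 9.33% of the I79 young level (log2 ratio -3.42, 95% counting interval -3.97 to -2.92) and the I10 old column 20.8% of the I10 young level (-2.27, -2.62 to -1.93).

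NCAPG (chr4:17812602-17846488, plus strand, overlapping LCORL) stood at 49.1 and 61.0 CPM in young I79 and I10 and at 6.08 and 14.3 CPM when old. It fell by 2.52 ± 0.25 on the log2 scale (edgeR adjusted p 0.00566), to 12.4% of the young level in I79 and 23.4% in I10. NCAPD2 (chr12:6602522-6641121, plus strand, overlapping MRPL51) was the most abundant of the 3 condensin I genes and changed least of them. Its young columns held 141 (I79) and 149 CPM (I10) and its old columns 49.6 and 64.3 CPM, and it fell by 1.36 ± 0.12 (edgeR adjusted p 0.00485).

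The condensin II subunits had a median log2 fold change of -1.04, against -2.52 for the 3 condensin I subunits, which is a description of 3 genes each. NCAPH and NCAPG set this gap, while NCAPD2 of condensin I (-1.36 ± 0.12) and NCAPD3 of condensin II (-1.31 ± 0.12) were close. With protein-coding transcripts alone, an alternative chosen after seeing the data, NCAPD2 (-0.97) fell less than NCAPD3 (-1.27) and NCAPG2 (-1.04). Of the condensin II genes, NCAPD3 (chr11:134020008-134095398, minus strand, overlapping JAM3 and VPS26B) was the only one called. Its young columns held 38.0 (I79) and 39.0 CPM (I10) and its old columns 15.4 and 15.7 CPM, so that the isolates were nearly equal at both ages, and it fell by 1.31 ± 0.12 (edgeR adjusted p 0.00533). NCAPG2 (chr7:158423861-158497495, minus strand, no overlapping gene) stood at 50.8 and 56.2 CPM in young I79 and I10 and at 19.4 and 34.2 CPM in old (log2 fold change -1.04 ± 0.19, edgeR adjusted p 0.0186). NCAPH2, the condensin II kleisin (chr22:50946653-50963209, plus strand, overlapping SCO2), had the smallest change. Young I79 and I10 held 26.1 and 27.7 CPM of it, and old cells 21.2 and 18.6 CPM (log2 fold change -0.44 ± 0.14, edgeR adjusted p 0.0731).

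The calls depended on the fit in 4 genes. SMC2 and NCAPG2 passed both thresholds with DESeq2's Wald test (adjusted p 0.00167 and 0.00078), while SMC4 and NCAPG missed the threshold without the isolate covariate (adjusted p 0.0109 and 0.0119 by edgeR). Scaling by plain library totals lowered the median change of all genes by 0.21 and moved the calls over all genes from 868 higher and 572 lower to 1016 higher and 2108 lower, with all 8 condensin genes still lower and 7 of them called.

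Each isolate alone had 7 of 8 genes lower by over 0.6, where 19.6% of genes tested were in I79 and 18.8% in I10, with no test possible. NCAPH2 was the exception in both, at -0.30 in I79 and -0.58 in I10. Young I10 and I79 differed little, by log2 ratios of 0.04 in NCAPD3 to 0.31 in NCAPG. Old I10 exceeded old I79 by more in NCAPH (1.24), NCAPG (1.22), NCAPG2 (0.81) and SMC4 (0.68), by 0.03 in NCAPD3, and lay below it in NCAPH2 (-0.19). The difference between the isolates' changes was not tested, since each isolate has 1 column per age.

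Levels of different genes can be compared only per length, for which the deposited TPM, which scale estimated counts by transcript length and library size, were summed per gene. SMC4 was the highest of the 8 in all 4 columns, at 78.1 and 92.0 TPM in young I79 and I10 and at 21.3 and 35.5 TPM when old. In young cells NCAPD2 followed, at 53.7 and 54.9 TPM, and the lowest was SMC2 in I79 (15.7 TPM) and SMC2 with NCAPD3 and NCAPH in I10 (17.3 to 17.4 TPM). In old cells the lowest was NCAPH, at 1.09 TPM in I79 and 3.14 in I10. NCAPH2 went from 24.1 TPM in young I79, just below NCAPG at 24.6, to 17.9 TPM in old I79, above NCAPD2 at 15.0. In I10 it went from 26.8 TPM, below NCAPG at 35.1, to 15.5 TPM, still below NCAPD2 at 20.3.

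The 3 condensin I genes together went from 96.2 to 19.2 TPM in I79 and from 107 to 29.7 TPM in I10. The 3 condensin II genes went from 63.2 to 31.6 TPM and from 70.0 to 35.0 TPM. Condensin I genes were therefore 60.4% and 60.5% of the complex-specific TPM in young I79 and I10, and 37.8% and 45.9% in old. Both isolates moved in the same direction, with 1 column per age and no test. The shares shifted with the length used. When counts were divided by the longest annotated transcript, they were 67.2% and 67.8% in young and 50.8% and 55.9% in old. These shares count transcripts of every annotated type. In young I79 and I10, protein-coding transcripts held 48.6% and 52.4% of NCAPD2 TPM and 45.6% and 41.6% of NCAPG TPM. In old cells they held 75.0% and 62.5% of NCAPD2 and 53.7% and 49.6% of NCAPG. For NCAPH and the condensin II genes they held 78.3% or more in each column. The condensin I share was not computed from protein-coding transcripts alone.

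**Figure D2:**
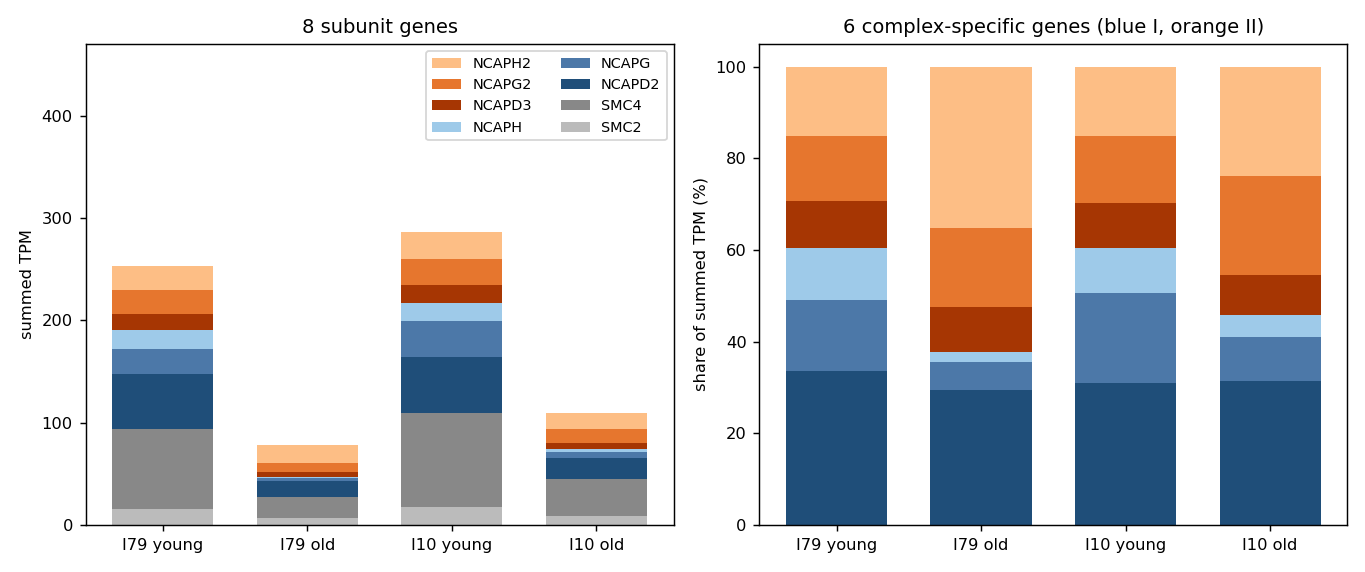
Deposited TPM summed per gene in the 4 old and young columns, stacked over the 8 subunit genes on the left and as a percentage of the 6 complex-specific genes on the right (blue, condensin I; orange, condensin II). The blue share goes from 60.4% to 37.8% in I79 and from 60.5% to 45.9% in I10, and NCAPH goes from 17.9 to 1.09 TPM in I79 and from 17.4 to 3.14 TPM in I10.

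Transcripts of one gene did not all change alike. NCAPD2 was split mainly between the protein-coding transcript NCAPD2-201 and NCAPD2-207, annotated as a target of nonsense-mediated decay, which removes mRNAs with early stop codons. NCAPD2-201 went from 25.3 to 11.3 TPM in I79 and from 28.8 to 12.7 TPM in I10. NCAPD2-207 went from 22.6 to 3.07 TPM in I79 and from 22.8 to 5.36 TPM in I10, so its share of NCAPD2 was 42.1% and 41.5% in young and 20.5% and 26.4% in old. The nonsense-mediated decay transcript NCAPG-205 kept a steadier share of NCAPG, at 50.6% and 48.0% in young and 46.3% and 50.4% in old. These are estimates of a quantifier that splits shared reads among transcripts, with 1 column per group. With protein-coding transcripts alone, an alternative chosen after seeing the data, the log2 fold change of NCAPD2 was -0.97, against -1.36 with all transcripts. NCAPD2 was still called (adjusted p 0.00458 by edgeR), and SMC2 was called as well (adjusted p 0.00994 by edgeR).

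**Figure D3:**
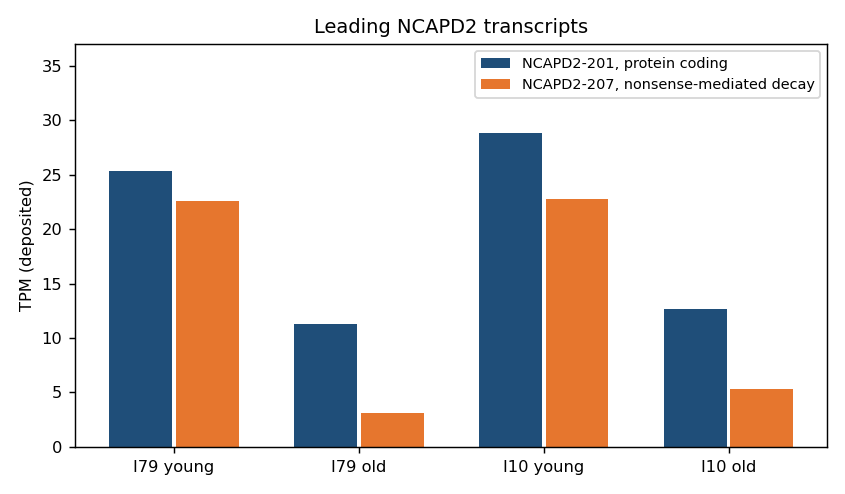
Deposited TPM of the leading transcripts of NCAPD2 in the 4 old and young columns, 1 bar per column and no error bar because each group has 1 table. The bars of NCAPD2-207 go from 22.6 to 3.07 TPM in I79 and from 22.8 to 5.36 TPM in I10, while those of NCAPD2-201 stay at 11.3 TPM or higher.

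Most of the genes listed as working with condensin on mitotic chromosomes were also called lower. Of the 24 regulators and chromosome partners listed, 23 could be tested in old against young cells; 15 were called lower, 0 were called higher, and the median was -1.86 on the log2 scale, where 3.78% of all genes tested were called lower. Among the 8 not called were the anchoring protein gene AKAP8 (-0.18, adjusted p 0.316), the casein kinase gene CSNK2A1 (-0.01, adjusted p 0.947), the phosphatase gene CDC14A (-0.14, adjusted p 0.701) and RB1 (0.14, adjusted p 0.359), all by edgeR. The rest of the 8 were lower without being called. They were BUB1 (-1.86, edgeR adjusted p 0.0108), PPP2CA (-0.46, 0.0289), PHF8 (-0.52, 0.0343) and MCPH1 (-0.52, 0.0466). The largest changes were in the proliferation marker MKI67 (-2.60), the kinases AURKB (-2.36) and PLK1 (-2.35), the cyclins CCNB2 (-2.28) and CCNB1 (-2.21) and the chromosomal passenger protein BIRC5 (-2.24). CDK1, the kinase that phosphorylates condensin at mitosis, fell by 1.79, and TOP2A, the topoisomerase that decatenates sister chromatids, fell by 2.19. MKI67 stood at 194 and 228 CPM in young I79 and I10 and at 21.8 and 54.1 CPM in old. The part of cell cycle position in the condensin values was not tested. CCNA2 had 131 estimated reads in I79 old and was listed at 0 in the other 3 columns, so it was not tested.

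In the other SMC complexes fewer genes were called. Of 13 cohesin genes, 3 were called lower and 0 higher in old cells, where 3.78% of all genes tested were called lower (median -0.23 on the log2 scale): ESCO2 (-2.92), which acetylates cohesin in S phase, CDCA5 (-2.14), the sororin gene, and the ATPase SMC1A (-1.16). Its partner SMC3 had -0.42 (adjusted p 0.039 by edgeR) and the kleisin RAD21 -0.23 (adjusted p 0.173). Of 9 SMC5/6 genes none was called by edgeR or DESeq2 (median -0.14), and 5 had an unadjusted p under 0.05. The share of all genes at that p was not computed. Among 17 genes of the MuvB, E2F and FOXM1 regulators, 4 were called lower and 0 higher, against the same 3.78% of all genes: MYBL2 (-3.31), E2F8 (-3.04), FOXM1 (-2.40) and RBL1 (-1.34), while the median was -0.47. Of the senescence checks, 4 of 5 were called, with LMNB1 at -2.86, HMGB2 at -1.64, HMGB1 at -1.42 and CDKN1A at 2.48, while CDKN2A was at 0.44 (adjusted p 0.307 by edgeR).

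HMGB2 KD was set against WT to ask how expression differs after depletion of the chromatin protein HMGB2. Whether WT received a control siRNA is not given, so HMGB2 loss and the siRNA treatment itself cannot be told apart. The WT libraries held 27.1 and 27.3 CPM of HMGB2 and the knockdown libraries 3.22 and 3.64 CPM, a fall by 2.99 ± 0.16 on the log2 scale (edgeR adjusted p 8.28e-07). None of the 8 condensin genes was called, where 5.20% of 15338 genes tested were (438 higher and 359 lower; 385 and 484 with plain library totals). No condensin gene had an unadjusted p under 0.05, a cut at which the share of all genes was not computed, and DESeq2's Wald test also called 0. The median log2 fold change was -0.09 over the 8 genes and 0.00 over all genes tested. The libraries of the groups did not overlap in 4 of 8 genes, against 53.8% of all genes tested. WT libraries held 32.1 and 37.8 CPM of MKI67, where I79 and I10 held 194 and 228 CPM young and 21.8 and 54.1 CPM old. For CDKN1A, WT held 1160 and 1200 CPM, where I79 and I10 held 354 and 341 CPM young and 2350 and 1610 CPM old. These tables were counted in different ways, and the part of the state of the WT cells in the knockdown values was not tested.

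For SMC4, 57.5 and 63.4 CPM in the WT libraries met 55.6 and 56.2 CPM in the knockdown libraries (log2 fold change -0.11 ± 0.12, edgeR adjusted p 0.648). SMC2 overlapped between the groups, at 19.6 and 23.4 CPM against 19.9 and 21.4 CPM (-0.06 ± 0.15, edgeR adjusted p 0.864). Both differences were smaller than their SE.

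NCAPH, the largest change with senescence, stood at 6.16 CPM in both WT libraries and at 5.57 and 5.22 CPM after knockdown (-0.19 ± 0.21, edgeR adjusted p 0.646). NCAPG had 12.5 and 13.6 CPM without and 11.6 and 12.4 CPM with knockdown (-0.12 ± 0.16, edgeR adjusted p 0.716). NCAPD2 had 54.8 and 59.0 against 56.2 and 60.8 CPM, which overlapped (0.04 ± 0.12, edgeR adjusted p 0.898). Each of these condensin I differences was smaller than its SE.

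In condensin II, NCAPD3 had 29.3 and 26.3 CPM in the WT libraries against 26.2 and 23.4 CPM after knockdown (-0.17 ± 0.14, edgeR adjusted p 0.528). NCAPG2 overlapped between the groups, with 15.3 and 18.2 against 17.1 and 18.3 CPM (0.08 ± 0.15, edgeR adjusted p 0.823). NCAPH2 had the largest value, 0.27 ± 0.17 (edgeR adjusted p 0.382), which rested on 1 library. WT libraries held 19.0 and 22.2 CPM, HMGB2 KD replicate 1 held 20.3 CPM and replicate 2 held 29.5 CPM. Without HMGB2 KD replicate 2 the log2 fold change was -0.02, and without replicate 1 it was 0.51.

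None of the 24 regulators and partners, 13 cohesin genes or 16 tested MuvB, E2F and FOXM1 genes was called by edgeR after HMGB2 depletion. Over all genes tested, 5.20% were called. The list medians were -0.01, -0.12 and -0.01, with 2, 3 and 5 genes at an unadjusted p under 0.05. The share of all genes at that p was not computed. DESeq2's Wald test called 1 gene of these lists, the repressor gene E2F7, with a log2 fold change of 0.81 ± 0.19 in edgeR (adjusted p 0.0147). SMC6, the ATPase of the SMC5/6 complex, was the 1 gene called among the 8 tested of that complex. It rose by 0.71 ± 0.14 (edgeR adjusted p 0.00418), with WT libraries at 24.6 CPM or below and a knockdown library at 38.5 CPM. Of the senescence checks, only HMGB2 itself was called, and LMNB1 was at -0.04 and CDKN1A at 0.26.

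The ICM libraries were counted in another way from the old and young tables, so no test was run, and WT against I79 young shows by the same steps how far differently counted tables of cells without ICM lay apart. These ratios share the I79 young column and are given side by side. Over the 13857 genes compared, condensin genes stood lower in ICM than in I79 young by over 0.6 in 7 of 8 cases, where 30.5% of all genes did. In WT against I79 young the count was 6 of 8, where 22.7% of all genes did. The median log2 ratio of the 8 genes was -2.93 for ICM and -1.50 for WT, and that of all genes compared was -0.05 and -0.02. The counting method, the culture and ICM cannot be told apart in the ICM ratios.

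NCAPH had 3 and 2 reads in the ICM libraries, with exact 95% Poisson intervals of 0.619 to 8.77 and 0.242 to 7.22 reads. Set against 318 estimated reads in I79 young and rescaled by the reads on shared genes, the 5 ICM reads came to 0.917% of the I79 young level (95% counting interval 0.296% to 2.16%). WT against I79 young had a log2 ratio of -1.78 for NCAPH. NCAPG had 41 and 21 ICM reads, a log2 ratio of -4.43 to I79 young, against -1.98 for WT. Of its ICM reads, 70.7% and 81.0% lay in the 3′ untranslated region. NCAPG overlaps LCORL, and the part of that overlap in its ICM reads was not tested. With the ICM side alone cut to coding and noncoding reads, the ratio was -5.79. In this and each later coding-read ratio I79 young kept all its reads, untranslated regions included, so the sides are not alike. NCAPD2 had 243.5 and 252.8 reads and a log2 ratio of -2.92, against -1.38 for WT.

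SMC4, with 160 and 136.8 ICM reads, had a log2 ratio of -3.99, against -1.62 for WT. SMC2, with 172 and 144 reads, had -2.04, against -1.26 for WT. The core ATPases thus lay further below I79 young in ICM than in WT, as did each condensin I gene.

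The condensin II genes did not all lie as low. NCAPG2 (97 and 78 reads) had a log2 ratio of -2.95, against -1.67 for WT, while NCAPD3 (302 and 228 reads) had -0.94, against -0.52 for WT. NCAPH2 (569 and 472 reads) stood above I79 young, at 0.57, against -0.42 for WT. In NCAPH2 67.5% and 67.6% of the ICM reads lay in the 3′ untranslated region. NCAPH2 overlaps SCO2, and the part of that overlap in its ICM reads was not tested. With only the ICM side cut to coding and noncoding reads, its ratio to the uncut I79 young column was -0.58. Over all genes, 61.1% and 61.9% of ICM reads were in coding regions, against 28.6% and 29.4% for NCAPH2.

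Against I79 old, ICM had 6 of 8 condensin genes lower by over 0.6, where 26.6% of all genes compared were. NCAPH had a log2 ratio of -2.76 and SMC4 of -2.03, while NCAPD3 had 0.52 and NCAPH2 1.04. Divided by the exon length of each gene, condensin I genes made up 22.8% and 25.3% of the complex-specific reads in the ICM libraries, and 38.9% and 41.9% with coding and noncoding reads alone over the same lengths. With all reads the shares were 60.1% and 58.9% in WT and 58.8% and 55.0% in HMGB2 KD. Scaled by the longest transcript, NCAPH2 alone took 50.7% and 49.6% of the reads of the 8 genes in ICM, and 14.0% and 14.9% in WT. With coding and noncoding reads alone, NCAPH2 took 26.5% and 25.9% in ICM. The coding-read shares were an alternative chosen after seeing the data.

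**Figure D4:**
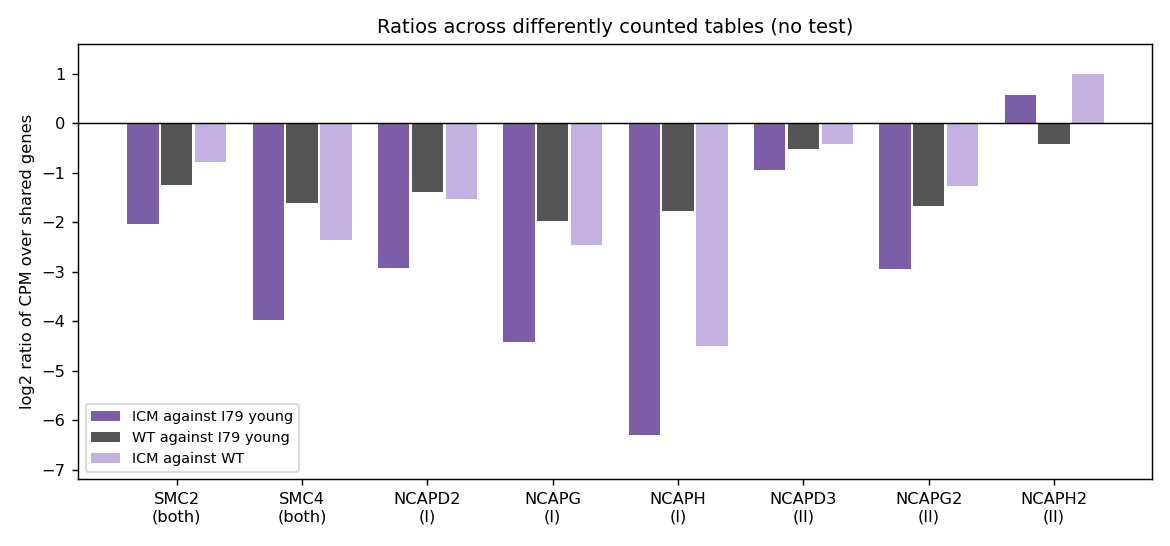
Log2 ratio of CPM over shared genes for ICM against I79 young, WT against I79 young and ICM against WT, 1 group of bars per condensin gene. The tables were counted in different ways and no test was run. Bars of ICM against I79 young reach from -6.30 for NCAPH to 0.57 for NCAPH2, and those of WT from -1.98 to -0.42. With only the ICM side cut to coding and noncoding reads, NCAPH2 was at -0.58.

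Ordered by level over all groups on CPM of shared genes, the young columns were highest for 7 of the 8 genes. For SMC4 they stood at 202 and 228 CPM, I10 old at 78.7, WT at 65.6 ± 4.49, HMGB2 KD at 57.7 ± 0.703, I79 old at 51.8 and ICM at 12.7 ± 0.317 (SD, n = 2). For NCAPH the order was I10 young (25.7), I79 young (23.2), WT (6.68 ± 0.00635), HMGB2 KD (5.57 ± 0.366), I10 old (4.46), I79 old (1.93) and ICM (0.211 ± 0.0317). NCAPD3 was lowest in the old columns, at 15.6 and 15.1 CPM, below ICM at 22.5 ± 1.42 CPM. NCAPH2 was highest in ICM when all reads were counted, at 44.3 ± 0.154 CPM, followed by the young columns at 31.9 and 29.8 CPM. With only the ICM side cut to coding and noncoding reads, ICM lay below the uncut I79 young column, at a log2 ratio of -0.58. Of the remaining groups, HMGB2 KD (25.7 ± 6.25), WT (22.3 ± 2.47) and I79 old (21.5) did not separate beyond their spread where a spread was known. I10 old (17.8) lay below both WT libraries (20.6 and 24.1) and both HMGB2 KD libraries (21.2 and 30.1). Positions across kinds of table carry the difference in counting.

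**Figure D5:**
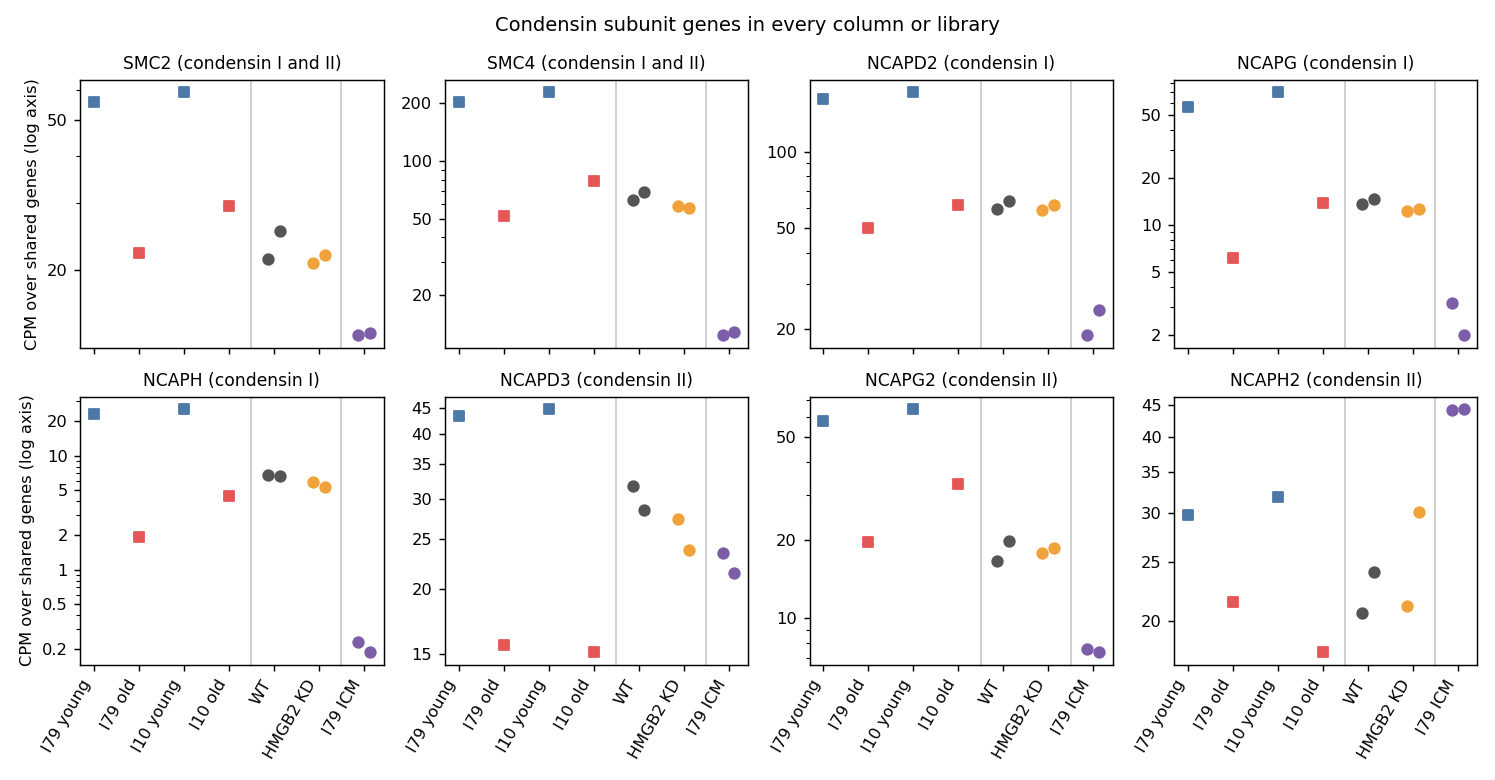
CPM over shared genes of each condensin gene (log axis, scaled per panel) in every column or library, with squares for the pooled old and young columns, circles for single libraries, and grey lines between tables counted in different ways. Young columns (blue) are highest except in NCAPH2, where both ICM libraries (purple), with all reads counted, lie near 44.3 CPM.

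The 8 genes followed one profile to different degrees. Over 8 points, 4 old and young columns and 4 WT and HMGB2 KD libraries centred within each set, the correlation of each gene with the mean of the other 7 was 0.93 or higher for 7 genes, with SMC4 at 0.997 and NCAPG at 0.996, and 0.572 for NCAPH2. The points share tables and scaling, and most of the range comes from the 4 old and young columns. The 5 of 9667 other genes with the profile most like the mean were DNAJC15, the mitotic kinase gene AURKA, the kinesin genes KIF11 and KIF22, and ANAPC7 of the anaphase-promoting complex, with Pearson r of 0.997 to 0.998. In all, 438 genes had an r above 0.95. Their size of change differed, from -0.44 for DNAJC15 to -2.42 for KIF11 in old against young cells.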

How the data were processed

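RNA-seq of 14 samples in 7 groups of 2 was analysed. The authors deposited a table of raw counts for each WT and HMGB2 KD library. The methods name STAR 2.6.0c, GRCh37 and featureCounts, while the tables end with rows in the layout of htseq-count (16.9% to 18.0% of the totals, left out). Use of strand is not stated. For old and young cells the authors deposited estimated counts and TPM per transcript, 1 table per group, in the layout salmon writes (quantifier not given in the sources used here). Transcripts were summed per gene and rounded, with 97.7% of IDs matched to GENCODE on GRCh37. For ICM the authors deposited estimated counts per gene and transcript region, from libraries matched to ribosome profiling, and these were summed.

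Tests used edgeR 4.0.16 (R 4.3.3), quasi-likelihood, with TMM, filterByExpr and Benjamini-Hochberg adjustment over all genes. A call needed adjusted p under 0.01 and log2 fold change beyond 0.6, as in the methods of the study. Its results text gives an adjusted p under 0.05 instead. Isolate was a covariate for old against young (1 residual degree of freedom). SE is the fold change over the square root of F, which uses a variance moderated over all genes tested. All 8 genes passed the filter in both fits. Intervals are 95% Clopper-Pearson or Poisson and cover counting error only, since reads carry no molecular identifiers. Across tables, log2 CPM used a prior count of 2 and 24638 shared genes, with a mean count of at least 10 for the 13857 compared. The columns of the tables used here were all mapped to samples. The fits were tested on simulated data. DESeq2 1.42.0, other scalings, filters, covariates and omitted libraries were alternatives. Replicates differed beyond sampling noise (chi-square over its degrees of freedom 2.12 for ICM, 25.1 for WT and 38.1 for HMGB2 KD).

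All members are named; of each list, called genes with the largest changes (at most 6) and any that went against the list, and the 5 genes most like the mean profile. CDK1, TOP2A, CCNA2, SMC3, RAD21, E2F7, AKAP8, CSNK2A1, CDC14A, BUB1, PPP2CA, PHF8, MCPH1 and uncalled checks, outside that rule, were added after their values were seen. The members and lists were chosen with earlier results of these data known.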

Additional observations from a re-analysis of the deposited data

How the results depend on the processing

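No member of the 8 was called in HMGB2 KD under any of the 11 alternatives, and all 8 kept their direction in old against young cells under all 10. Among those 10, the change of the adjusted p threshold reuses the same fit and cannot move a direction. The single isolates among them are parts of the main fit. In HMGB2 KD, values near 0 changed sign with 1 library left out: SMC2 ranged from -0.183 to 0.071, NCAPD2 from -0.015 to 0.090, NCAPG2 from -0.046 to 0.205 and NCAPH2 from -0.019 (without HMGB2 KD replicate 2) to 0.508. NCAPD2 was also -0.026 with plain library totals. The count of all genes called there was 797, and 312 to 999 when 1 library was left out, with 312 without HMGB2 KD replicate 2. With the replicate block it was 1243 and no condensin gene was called; replicates share only a number in the labels (correlation of deviations 0.12 over 2 pairs), so the pairing is not established. Old against young, 1440 genes were called, and 2164 with DESeq2's Wald test, 4253 with no filter, 3124 with plain library totals and 3857 at an adjusted p under 0.05. The condensin genes called were 5, and 3 without the isolate covariate. They were 7 at an adjusted p under 0.05, and also with DESeq2's Wald test, with no filter and with plain library totals. The share of condensin I by the longest transcript was 67.2% and 67.8% in young I79 and I10 and 50.8% and 55.9% when old. It was 57.0% and 56.2% in WT, 56.1% and 52.6% in HMGB2 KD and 21.6% and 24.3% in ICM. By exon length, the ICM shares were 22.8% and 25.3% with all reads and 38.9% and 41.9% with coding and noncoding reads alone. Those coding-read shares were an alternative chosen after seeing the data. With WT in place of I79 young as the control, ICM had 6 of 8 genes lower by over 0.6 and 1 higher, NCAPH2 (0.99), and NCAPD3 was at -0.42; with I10 young 7 were lower and 0 higher. The causes were not tested. Depth limits NCAPH in ICM, with 5 reads in all.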
